A study of Mus musculus with 2 samples.

Results

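Early distal-type enterocytes with guanylin were absorptive cells that carried a high level of Guca2a, an intermediate level of the ileal lipid-binding gene Fabp6 and a low level of Fabp1, the fatty acid binding gene of the upper intestine. A cell was a member when Guca2a was at least 4, Fabp6 was from 5 to below 50 and Fabp1 was below 80, in counts per 10000 transcripts of the cell (CP10K). Members also had no Mki67 or Top2a, which mark dividing cells, and less than 10 CP10K summed over the goblet genes Muc2, Fcgbp, Spink4, Clca1 and Zg16. The rule gave 395 of 11053 cells, or 3.57% (95% exact Clopper-Pearson interval 3.24 to 3.94, counting error only). Members were thus chosen by their measured levels of these 10 genes, whose values are a description and support nothing.

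The cells came from sorted small intestine epithelium of mouse embryos at embryonic day 18.5, fixed in 90% methanol and read with droplet 3' chemistry, in which every captured transcript receives a barcode for its cell and a molecular tag (UMI) that is counted once. The study made 1 Tet3 knockout library and 1 Control library, both from 2 pooled embryos of strain C57BL6/J. The knockout allele lacks exon 5 of Tet3, a dioxygenase that oxidises methylated cytosine, which shifts the frame to a stop in exon 6. It was made by Cre in embryonic stem cells and passed through the germ line, so it is not limited to the epithelium, and the line was crossed to C57BL6/J for at least 5 generations. Both libraries were deposited as 1 table. A suffix on the barcode splits the rows into set 0 (5933 cells) and set 1 (5938 cells), and no label ties a suffix to a genotype. The table was therefore treated as 1 pooled sample and genotypes were not compared. Cells of 1 sample share their source, so differences are given as sizes without a p-value.

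Of set 1, 818 rows carried a 16-base barcode that set 0 also carried, and these rows were left out. Of them 53, or 6.48%, met the rule for members, and for 37 of the 53 the set 0 row of the same barcode also met it. After this step set 0 held 330 members among 5933 cells (5.56%, interval 4.99 to 6.18) and set 1 held 65 among 5120 (1.27%, 0.981 to 1.62). Members had a median of 20105 UMIs per cell (lowest 8052, highest 148965), against 23048 in all kept cells, and at least 5 UMIs of Guca2a stood behind every member. Their median mitochondrial share was 6.04%, against 6.79% in all kept cells. Tet3 averaged 0.557 CP10K in members of set 0 and 0.304 in members of set 1. Tags near the 3' end of Tet3 do not read the deleted exon, so these levels check no label.

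Guanylin is a small secreted peptide that binds guanylate cyclase C on the apical membrane of intestinal epithelial cells and raises cyclic GMP there. Cyclic GMP acts through a membrane-bound kinase, promotes chloride and bicarbonate secretion through the channel Cftr and restrains sodium uptake by the exchanger Slc9a3. In adult rodents guanylin is known mainly from the distal intestine and colon, while its relative uroguanylin, encoded by Guca2b, is known mainly from the upper small intestine. Enterocytes mature as they leave the crypt or, before birth, the intervillus region, and their gene use also differs along the length of the bowel.

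Guca2a (ENSMUSG00000023247) lies on the plus strand of chromosome 4 at 119637704 to 119639471 (GRCm38, GENCODE vM21), and Guca2b (ENSMUSG00000032978) lies downstream of it on the minus strand at 119656607 to 119658954, with 17135 bases between them. The 250 bases before each RefSeq start (build GRCm38.p6) are shown because the neighbours encode related ligands with different levels in these cells. Capitals mark matches to GATAAG, a motif of GATA factors, to GTTAAT, part of the HNF1 site, or to TTTATG, which holds the core of CDX sites, on either strand. The motifs do not overlap one another, and they were picked after the sequences had been read.
Guca2a, chr4:119637482-119637731, plus strand: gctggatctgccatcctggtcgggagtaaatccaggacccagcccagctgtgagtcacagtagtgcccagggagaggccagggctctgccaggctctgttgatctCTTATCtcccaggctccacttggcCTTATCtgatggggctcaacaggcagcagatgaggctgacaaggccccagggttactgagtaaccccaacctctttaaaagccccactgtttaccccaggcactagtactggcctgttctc
Guca2b, chr4:119658946-119659195, minus strand: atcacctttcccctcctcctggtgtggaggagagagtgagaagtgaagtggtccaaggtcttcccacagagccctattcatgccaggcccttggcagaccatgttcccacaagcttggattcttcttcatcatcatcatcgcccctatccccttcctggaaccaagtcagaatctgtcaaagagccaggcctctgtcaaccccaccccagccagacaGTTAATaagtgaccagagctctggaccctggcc

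The window of Guca2a held GATAAG at 2 places, both on the strand opposite to the gene, and neither of the other motifs. GATAAG was found in 6.55% of the 32851 promoter windows in the table and at 2 or more places in 0.35%. The window of Guca2b held GTTAAT once, ending 28 bases before the start, and this motif was found in 6.43% of windows. A match is a string of letters and not a shown binding site. TTTATG was in neither window and in 10.8% of all windows.

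The label's markers were examined first, and they differed in how many members carried them. Guca2a averaged 15.6 CP10K in set 0 members and 16.9 in set 1 members, with a median of 13.9 over all members and a highest value of 82.3. Cldn8 encodes a claudin of tight junctions that is abundant in the distal bowel. It averaged 0.953 CP10K in set 0 members and 0.846 in set 1 members, and 77.2% of members had a UMI of it. Cldn8 was thus at a like level in both sets. With each cell thinned to 8000 UMIs, 49.9% of members held Cldn8 (interval 44.8 to 54.9), against 4.90% of Fabp1-high Fabp6-low cells (4.30 to 5.55). That class, taken as a background for the markers, had a median of 24193 UMIs. Whether it holds distal cells was not tested. Classes nearer to members also held Cldn8: it was found in 35.4% of ileal-type cells (Fabp6 of 50 or more), 42.2% of Fabp6-matched cells with Guca2a below 4 and 39.1% of guanylin-positive cells with Fabp6 below 5. In set 0 alone the share was 49.4% in members and 52.6% in guanylin-positive Fabp6-low cells. In set 1 it was 52.3% (39.5 to 64.9) and 33.5% (29.2 to 38.0), so the sets differed in this comparison.

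Fgf15 encodes the ileal hormone that signals bile acid load to the liver. It averaged 2.20 CP10K in set 0 members and 0.125 in set 1 members, and the summed level was 2.14 UMIs per 10000 in set 0 (exact Poisson 95% interval 2.04 to 2.24, from 1797 UMIs) and 0.112 in set 1 (0.0637 to 0.181, from 16 UMIs). After thinning, 58.5% of set 0 members and 6.15% of set 1 members held an Fgf15 UMI, while 9.33% and 3.81% of Fabp1-high Fabp6-low cells of sets 0 and 1 did. The interval in set 1 members (1.70% to 15.01%) reached down to that background. Among nearer classes of set 0, Fgf15 was found in 80.8% of ileal-type cells and 36.5% of guanylin-positive Fabp6-low cells, so members lay between them. The same order held over the whole sets, where Fgf15 averaged 1.10 CP10K in set 0 and 0.0808 in kept cells of set 1.

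Reg3b, a secreted C-type lectin with activity against bacteria, was carried by few members. It averaged 0.905 CP10K, but its median was 0, 16.5% of members had a UMI of it (10.4% after thinning, against 3.31% of Fabp1-high Fabp6-low cells), and 5 members held 75.5% of its summed level. The highest member had 137 CP10K. Without that member the log2 ratio over all other cells was 0.86, in place of 1.54. Nearer classes also held Reg3b after thinning: 14.1% of Fabp6-matched cells with Guca2a below 4 (9 of 64) and 2.54% of ileal-type cells. In set 0 it was found in 9.39% of members and 10.4% of guanylin-positive Fabp6-low cells. In set 1 the shares were 15.4% (7.63 to 26.5, from 10 cells) and 3.89% (2.32 to 6.07). The sets thus differed in this comparison. Of 395 members, all deep enough to be thinned, 10 held Fgf15, Cldn8 and Reg3b together, 105 held a pair of these, 195 held 1 and 85 held none. Beside the genes of the rule, which every member meets by construction, Cldn8 was thus found in members of both sets, Fgf15 mostly in those of set 0, and Reg3b in few.

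**Figure D1:**
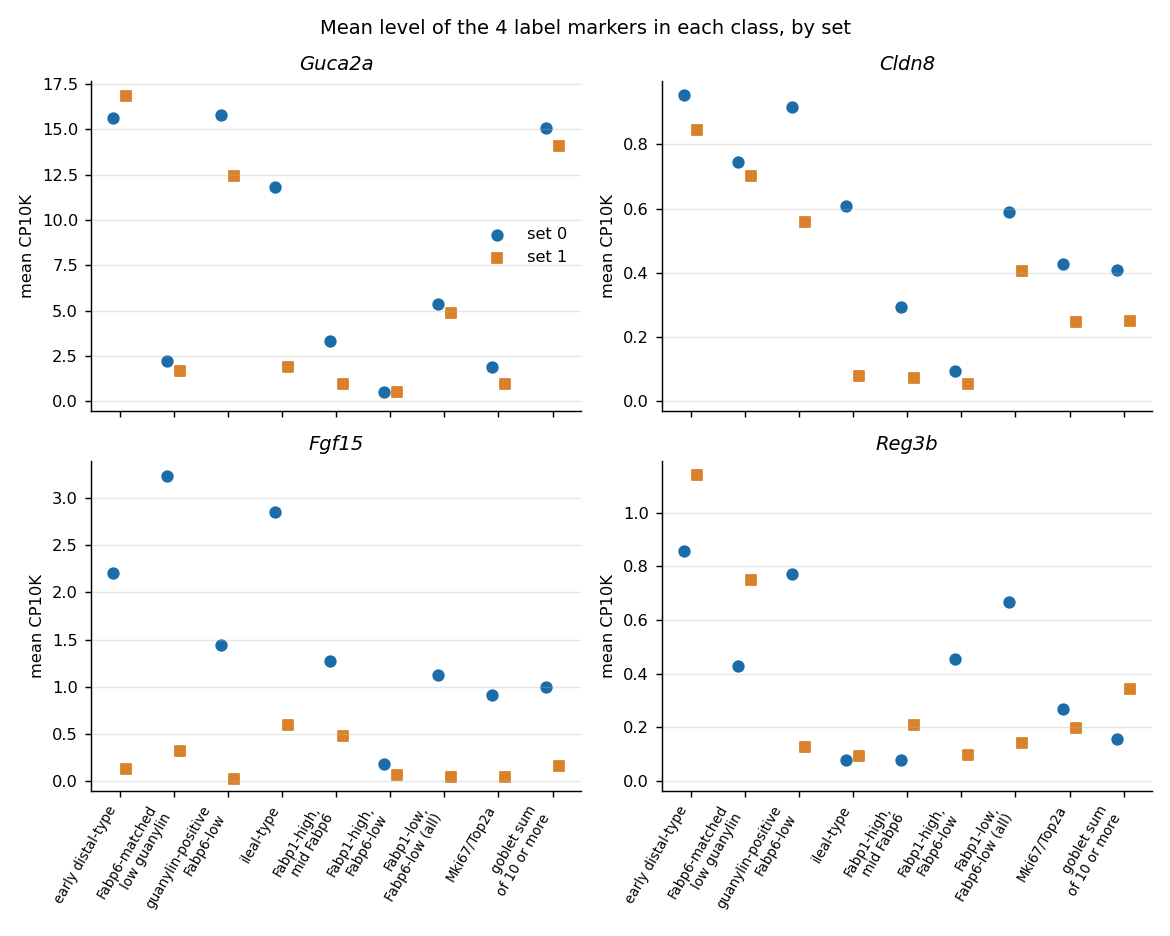
Mean level in CP10K (vertical axis) of Guca2a, Cldn8, Fgf15 and Reg3b in the early distal-type cells and 8 other classes (horizontal axis), with circles for set 0 and squares for set 1. Cldn8 stood at 0.953 and 0.846 in the early distal-type cells of sets 0 and 1, while Fgf15 stood at 2.20 and 0.125. The guanylin-positive Fabp6-low class is a subset of the Fabp1-low Fabp6-low class.

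Guanylin itself was not restricted to members. Guca2a of 4 CP10K or more was found in 81.8% of ileal-type cells (Fabp6 of 50 or more), in 69.3% of cells with a goblet sum of 10 or more, in 34.4% of Fabp1-low Fabp6-low cells without cycling transcripts and in 3.19% of Fabp1-high Fabp6-low cells. Goblet-gene cells averaged 14.8 CP10K, close to the 15.8 CP10K of members. Among cells that met every other term of the rule, 395 of 459 (86.1%, interval 82.5 to 89.1) also reached a Guca2a of 4. Cells with intermediate Fabp6 and low Fabp1 therefore mostly carried guanylin, and only 64 such cells lay below the limit.

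The sets held guanylin-positive early cells in more nearly equal shares once the Fabp6 minimum was dropped and its upper limit of 50 CP10K kept. Counting members together with the cells that met the rule except for a Fabp6 below 5, set 0 had 524 such cells (8.83%, interval 8.12 to 9.58) and set 1 had 528 (10.3%, 9.49 to 11.2). Of these, 330 in set 0 (63.0%, 58.7 to 67.1) and 65 in set 1 (12.3%, 9.63 to 15.4) reached a Fabp6 of 5 and were members. The median Fabp6 of these cells was 9.61 CP10K in set 0 and 0.459 in set 1, and no Fabp6 UMI was found in 4.96% and 44.1% of them. Below the upper limit of 50 CP10K, the sets thus differed in the Fabp6 of these cells, a gene of the rule, more than in their number. That limit left out ileal-type cells, of which 838 in set 0 and 5 in set 1 had a Guca2a of 4 or more. Among all kept cells, 30.5% of set 0 and 14.3% of set 1 reached a Guca2a of 4. The near-equal number therefore does not extend to all guanylin-positive cells. Fabp6 was also higher in set 0 outside the members, where all other cells averaged 27.7 CP10K, against 1.79 CP10K in set 1.

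**Figure D2:**
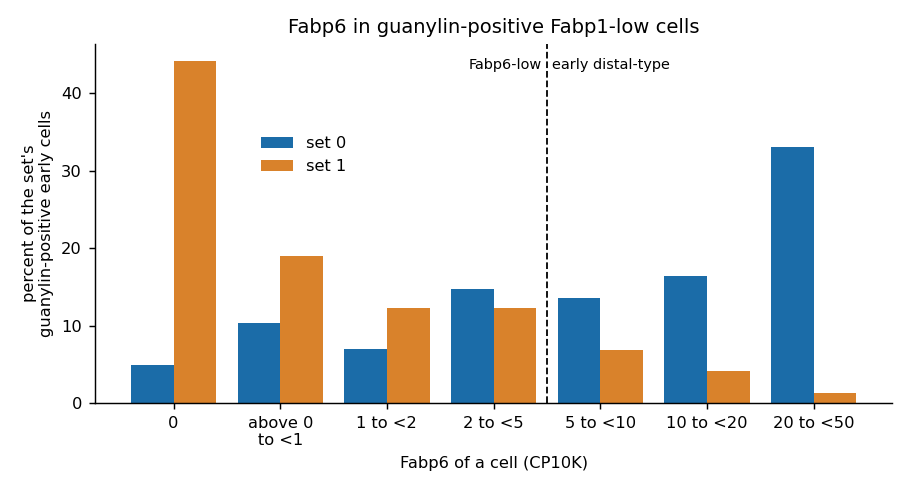
Percent of each set's guanylin-positive, Fabp1-low cells outside cycling and goblet classes (vertical axis) in 7 ranges of Fabp6 (CP10K, horizontal axis), with blue bars for set 0 (524 cells) and orange bars for set 1 (528 cells). The dashed line is the Fabp6 minimum of the rule. Set 0 cells lie mostly right of it (330 cells) and set 1 cells mostly left of it (463 cells). Cells with Fabp6 of 50 CP10K or more are not counted here.

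The guanylin axis was read from 23 listed genes, of which 9 besides Guca2a were measured at 0.2 CP10K or more in members or in all other cells. None of the 9 was higher in members by 2-fold, against a background of 98 of 5478 measured genes (1.79%), and 1 was lower, against 165 (3.01%). Levels of all other cells are weighted so that both sets count as they do in members, and the median log2 ratio of all measured genes was 0.13. Guca2b, the uroguanylin gene, averaged 5.21 CP10K in members and 7.92 in all other cells, with 5.59 against 8.23 in set 0 and 3.25 against 6.36 in set 1. Guca2b was thus lower in members in both sets, by less than 2-fold, and 9.70 CP10K in Fabp1-high Fabp6-low cells.

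The receptor and its effectors were present in members. Gucy2c, which encodes guanylate cyclase C, averaged 1.54 CP10K in members and 1.24 in all other cells. Prkg2, the cyclic GMP-dependent kinase of the apical membrane, averaged 3.03 and 2.13 CP10K, and Slc9a3r1, a scaffold protein that binds both Cftr and Slc9a3, 5.76 and 5.12. All 3 were within 1.5-fold of the other cells. Cftr, the chloride channel, stood at 0.154 and 0.180 CP10K, so ligand, receptor and kinase were found in the same class while the channel was low. Slc9a3, the sodium-proton exchanger, was the member of the list lower by 2-fold, at 0.0523 CP10K in members and 0.210 in all other cells (log2 ratio -1.82).

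Genes of bile acid handling were partly in place. Of 7 measured genes of bile acid transport and Fgf15 signalling outside the rule, 2 were higher by 2-fold (Fgf15 and Abcc2) and 1 was lower (Nr0b2, a nuclear receptor induced by bile acids). Abcc2, an apical exporter of conjugates, averaged 5.55 CP10K in members and 2.58 in all other cells, and was higher in both sets (5.76 against 2.72 in set 0, 4.45 against 1.83 in set 1). Slc51a and Slc51b encode the subunits of the basolateral bile acid exporter. Slc51a averaged 7.46 CP10K in members and 5.49 in all other cells, and Slc51b 2.46 and 2.45. Nr1h4, the bile acid receptor FXR, averaged 2.33 and 1.49. The exporter and the receptor were thus in members at levels at or above those of all other cells together. Over nearer classes the list's median was -0.06 (Fabp6-matched), -0.23 (ileal-type) and 0.56 (guanylin-positive Fabp6-low cells). Over ileal-type cells 5 of the 7 genes were below 0, and Abcc2 averaged 6.22 CP10K in those cells.

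Slc10a2, the apical sodium-dependent bile acid transporter of the ileum, was too low to be counted among measured genes and was picked after its values were seen. It averaged 0.115 CP10K in members (0.0884 in set 0, 0.250 in set 1) and 0.0165 in all other cells. Ileal-type cells, which carry far more Fabp6, had 0.0130. After thinning, 5.57% of members (interval 3.52 to 8.31), 0.683% of ileal-type cells and 0.297% of Fabp1-high Fabp6-low cells held a UMI of it. The share was 7.81% in Fabp6-matched low-guanylin cells (2.59 to 17.3), and in set 0 it was 4.85% in members and 4.69% in guanylin-positive Fabp6-low cells. In set 1 the share was 9.23% in members (3.46 to 19.0, from 6 cells) and 1.73% in guanylin-positive Fabp6-low cells (0.749 to 3.38). Slc10a2 was thus higher in members than in ileal-type cells. Its share was like that of guanylin-positive Fabp6-low cells in set 0 only, and the interval of matched cells spanned that of members. Fabp6 separates members from ileal-type cells by the rule itself.

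Markers of region depended on the cells they were set against. Of 7 measured proximal genes, 4 were lower by 2-fold and none was higher, with a median log2 ratio of -1.49 over all other cells, many of which are Fabp1-high cells that the rule excludes. Over the Fabp1-low classes the proximal list was not low, with medians of 0.32 over Fabp6-matched and 0.10 over guanylin-positive Fabp6-low cells. Onecut2, a transcription factor of the upper intestine, averaged 0.0137 CP10K in members and 0.581 in all other cells, and Gata4, which also marks the upper intestine, 0.0629 and 0.210. Onecut2 was found in 1.27% of thinned members and in 49.8% of Fabp1-high Fabp6-low cells. Of 5 measured distal genes outside the rule, all were above 0 and 1 was higher by 2-fold (median 0.60), while the list's median was -0.06 over matched cells and -0.23 over ileal-type cells. Cubn, the cubilin receptor for vitamin B12 and luminal proteins, averaged 2.85 and 1.46 CP10K, and its partner Amn 8.99 and 5.92. Of the posterior patterning genes only Cdx1 (0.747 and 0.698 CP10K) and Cdx2 (1.78 and 1.52) were measured, both close to the other cells.

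Against all other cells, the 15 genes that ranked highest were Bex2, Rbp4, Tmigd1, Abca13, Bex1, Bcl2l15, 2610528A11Rik, Abcb1a, Ugt2b36, Cldn8, Afp, Reg3b, Ddah1, Ttr and Gpx3. The ranking took genes of at least 0.5 CP10K that were higher by 2-fold in each set, which 49 genes were, and left out the genes of the rule. Over both sets, Reg3b passed 2-fold only with its highest member included. Tmigd1, a cell adhesion protein of the immunoglobulin family, averaged 1.57 CP10K in members and 0.399 in other cells of set 0, and 1.89 and 0.158 in set 1. Bex1, a small X-linked adaptor protein, averaged 4.92 and 1.5 in set 0 and 10.1 and 1.80 in set 1. Bex2, its relative, averaged 1.00 and 0.255 in set 0 and 4.07 and 0.609 in set 1. Both Bex genes were thus higher in set 1 members than in set 0 members. Abcb1a, the efflux pump P-glycoprotein, averaged 0.650 and 0.195 CP10K over both sets.

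Secreted proteins best known from the liver were mostly higher in members than in all other cells. Of 7 measured, 5 were higher by 2-fold (Afp, Ttr, Fgb, Fga and Rbp4), 1 was lower (Serpina1a, an antitrypsin gene), and the median log2 ratio was 1.23. Afp, the fetal relative of albumin, averaged 16.5 CP10K in members and 5.57 in other cells of set 0, and 11.7 and 4.36 in set 1. Its level varied widely among members, with a median of 3.44, a 95th percentile of 70.1 and a highest value of 173. Over guanylin-positive Fabp6-low cells the list's median was 0.08, with 3 of 6 measured genes above 0. In summed UMIs per 10000, Afp stood at 16.1 in such cells and 14.8 in members of set 0, and at 30.5 and 14.1 in set 1. Ttr, the carrier of thyroxine and of retinol-binding protein, averaged 21.0 and 8.59 in set 0 and 39.0 and 9.26 in set 1. Rbp4, the plasma retinol carrier itself, averaged 0.620 and 0.170 in set 0 and 1.77 and 0.166 in set 1. Gpx3, a secreted glutathione peroxidase, was found in 98.5% of members and averaged 29.5 CP10K, against 10.9 in all other cells.

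Cholesterol synthesis genes were listed after the ranking had been seen, so their count is a description of a chosen group. All 20 listed genes were measured and above 0 in members over all other cells, 11 of them by 2-fold, with a median log2 ratio of 1.08. Hmgcs1, which makes HMG-CoA, averaged 3.36 CP10K in members and 1.28 in all other cells. Sqle, squalene epoxidase, averaged 1.09 and 0.444. Over ileal-type cells the same list had a median of 0.77, and over guanylin-positive cells with Fabp6 below 5 it was 0.04.

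Several genes of mature absorptive function were lower in members than in all other cells, many of which are Fabp1-high cells that the rule excludes. Of 18 measured genes for lipid uptake and chylomicrons, 4 were lower by 2-fold (Apoa4, Apoc2, Fabp2 and Cd36), none was higher, and the median was -0.47. Over the Fabp1-low classes this list was not low, with medians of 0.34 over Fabp6-matched and 0.07 over guanylin-positive Fabp6-low cells. Fabp2, the intestinal fatty acid binding gene, averaged 57.0 CP10K in members and 203 in all other cells. Apoa4, a chylomicron apolipoprotein of the villus tip, averaged 39.7 and 95.5, and Rbp2, the cellular retinol carrier, 21.4 and 120.1. Every member nonetheless held Fabp2 and Apoa4, with lowest values of 4.96 and 0.703 CP10K. Lct, lactase, averaged 0.780 and 2.75, and Fcgrt, the neonatal Fc receptor that takes up milk antibodies, 4.62 and 17.2.

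The apical surface was not low throughout. Of 16 measured genes of brush border structure, none passed 2-fold in either direction and the median was 0.11, near the median of all genes. Of 14 measured brush border hydrolases, 3 were lower (Mme, Lct and Ggt1) and 2 were higher (Enpep and Naaladl1). Mme, neprilysin, averaged 0.0560 CP10K in members and 1.46 in all other cells, while Enpep, glutamyl aminopeptidase, averaged 3.32 and 1.37. Of 17 endocytic and lysosomal genes 14 were above 0, none was higher by 2-fold, Fcgrt was lower, and the median was 0.40. Over ileal-type cells 15 of the 17 were below 0, Fcgrt, Lrp2 and Ctsl by 2-fold, with a median of -0.23.

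The 10 genes that ranked lowest over all other cells were Gip, Onecut2, Hist1h2ap, Mme, Reg1, Hist1h2ao, Serpina1a, Abcb11, Fam13a and Pclaf, of 76 that met the terms. Gip is a hormone gene of endocrine cells, Hist1h2ap, Hist1h2ao and Pclaf are genes of DNA replication, and Reg1 and Mme reached their highest class means in Fabp1-high Fabp6-low cells (2.06 and 2.82 CP10K). Gip averaged 2.85 CP10K in Fabp1-low Fabp6-low cells and 2.91 in cells with a goblet sum of 10 or more, and was near 0 in the other classes. The rule itself keeps out cells with Mki67, Top2a or high Fabp1. Pclaf averaged 0.0512 CP10K in members and 0.541 in all other cells. Of 12 measured genes of antigen presentation by MHC class I and of interferon response, 4 were lower by 2-fold (B2m, Psmb8, Psmb9 and Irf1) and the median was -0.60. Psmb8, an immunoproteasome subunit, averaged 0.0566 and 0.407 CP10K. Over the Fabp1-low classes this list was not low, with medians of 0.16 over Fabp6-matched and 0.05 over guanylin-positive Fabp6-low cells. Over ileal-type cells its median was -0.36. Of 9 measured epithelial defence genes, 4 were lower than in all other cells by 2-fold (Reg1, Lypd8, Pigr and Dmbt1). Reg3b alone was higher by 2-fold, and by less than that without its highest member.

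Markers of most other cell types were sparse in members. Apart from enterocyte genes and the erythroid genes given below, the highest sums were those of 10 proliferation genes outside the rule and of 7 colonocyte genes. The proliferation genes had a mean of 1.32 CP10K (highest member 6.17) and the colonocyte genes a mean of 0.866. Cells with Mki67 or Top2a averaged 15.99 for the proliferation genes, and Fabp1-high Fabp6-low cells 3.14 for the colonocyte genes. Other summed levels averaged 0.121 CP10K for 8 stem cell genes, 0.370 for the 3 goblet genes outside the rule, 0.359 for 12 enteroendocrine genes and 0.0383 for 6 Paneth genes. Those 3 goblet genes summed to 85.6 CP10K in cells excluded for their goblet level, and to more than 10 in 2 members. Lgr5, Lyz1, Itln1, Tph1, Dclk1 and Trpm5 were at 0 in members, and none of the 6 immune genes was found. Mesenchymal, endothelial and neural genes summed to 0.0392, 0.00818 and 0.00515. The 5 erythroid genes averaged 1.10 CP10K, with a median of 0 and a highest member of 412, and without the cell highest in Hbb-bs the log2 ratio of that gene was -0.28 in place of 3.23. The Hbb-bs level of members thus came mostly from 1 cell.

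**Figure D3:**
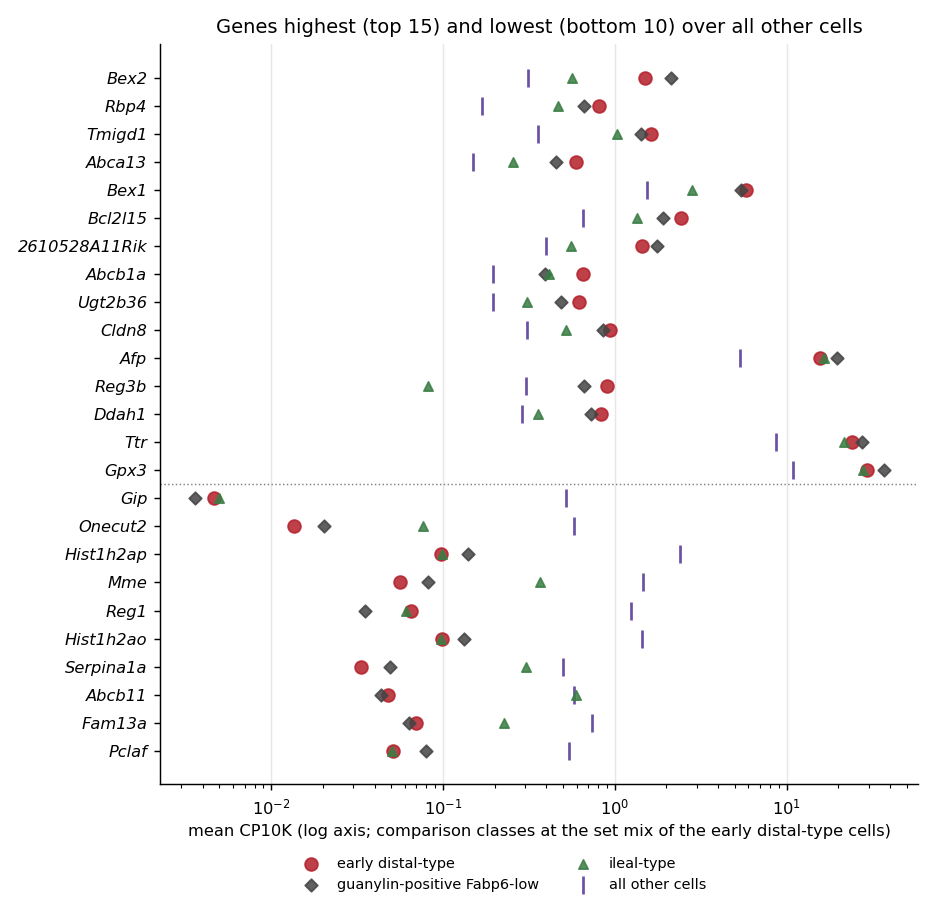
Mean CP10K (log horizontal axis) of the 15 genes that ranked highest and, under the dotted line, the 10 that ranked lowest in early distal-type cells (large circles) over all other cells (vertical ticks), with guanylin-positive Fabp6-low cells (diamonds) and ileal-type cells (triangles). Circles and diamonds lie close together for most genes: Tmigd1 stood at 1.62 in early distal-type cells, 1.42 in guanylin-positive Fabp6-low cells and 0.360 in all other cells. All classes other than the early distal-type cells are weighted to the set mix of those cells.

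Of the 4 comparisons, the fewest genes passed 2-fold against the guanylin-positive cells that failed the rule only because Fabp6 was below 5 (194 cells of set 0 and 463 of set 1), a comparison added after the classes had been counted. Only 5 of 5364 measured genes were higher in members by 2-fold (0.0932%) and 3 were lower (0.0559%). The 5 were Fabp6, which chose the members, the haemoglobin genes Hbb-bs and Hba-a1, whose level came mostly from 1 cell, and Gm8430 and Urah. The 3 were Tff3, Cldn15 and E330020D12Rik. In set 0 alone the counts were 12 and 6, and in set 1, with 65 members, 36 and 68. Few measured genes thus passed the 2-fold limit, which does not show that the classes are the same.

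With a limit of 1.5-fold in each set and a level of 0.5 CP10K, 6 genes were higher in members (Gm8430, Gm7536, Gsta4, Abcb1a, Mettl7b and Fgf15) and 2 were lower (Tff3 and E330020D12Rik). Gm8430 and Gm7536 are annotated as processed pseudogenes, so their reads may come from a related gene. Fgf15 averaged 2.20 CP10K in members and 1.44 in Fabp6-low cells of set 0, and 0.125 and 0.0184 in set 1. All 6 measured bile acid genes outside the rule were above 0 (median 0.56), among them Slc51b (2.46 and 1.47 CP10K), Slc51a (7.46 and 5.13) and Abcc2 (5.55 and 3.73). Each of these was higher in members, as Fabp6 was by the rule, and none by 2-fold. Tff3, a trefoil peptide of goblet cells, averaged 0.276 CP10K in members and 0.850 in Fabp6-low cells.

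Ileal-type cells, 1007 of set 0 and 23 of set 1, were set beside members to show where the 2 distal classes differ. Of 5433 measured genes, 84 were higher in members (1.55%) and 100 were lower (1.84%), and in set 0 alone, which holds nearly all ileal-type cells, 44 and 72. With totals taken without mitochondrial, ribosomal protein and haemoglobin genes, 133 were higher and 105 lower. The highest ranked were Reg3b, Fgfbp1, Krt19, S100a6, Csrp2, Ifitm2, Cldn3, Phgr1, Oxct1 and Prmt1, of 16 that met the terms. Krt19, a simple epithelial keratin, averaged 2.52 CP10K in members and 0.367 in ileal-type cells, and Fgfbp1, a secreted carrier of fibroblast growth factors, 0.793 and 0.0992. Ccnd2, a D cyclin, averaged 0.378 and 0.0261. After thinning, Krt19 was found in 48.4% of members, 16.9% of ileal-type cells, 46.8% of Fabp1-high Fabp6-low cells and 87.7% of cells with Mki67 or Top2a.

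The growth machinery lay in between. Of 8 measured ribosome biogenesis genes, all were above 0 in members over ileal-type cells and 2 were higher by 2-fold, with a median of 0.88. Npm1, nucleophosmin, averaged 3.86 CP10K in members and 1.72 in ileal-type cells, and Fbl, fibrillarin, 0.697 and 0.304. Of 83 measured cytosolic ribosomal protein genes, 79 were above 0 (median 0.55). Over Fabp6-matched low-guanylin cells both lists ran the other way: all 13 measured ribosome biogenesis genes were below 0 (median -0.78), and so were 81 of 82 ribosomal protein genes (median -0.39). With ribosomal protein, mitochondrial and haemoglobin genes outside the total, the median of the biogenesis list over matched cells was -0.84.

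Lower in members than in ileal-type cells were, by rank, Abcb11, Apoc2, Gm44805, Asah2, Nox4, Leap2, Bst1, Slc2a2, Rbp2 and Fabp2, of 42 that met the terms. Apoc2, an apolipoprotein, averaged 2.82 CP10K in members and 13.3 in ileal-type cells, and Gm44805 is a gene model of the same region of chromosome 7, so the counting may split reads between them. Leap2, a secreted peptide that opposes ghrelin, averaged 0.746 and 2.91 CP10K, and Slc2a2, the glucose transporter GLUT2, 0.188 and 0.663. Of 18 lipid absorption genes 17 were below 0 and 5 were lower by 2-fold (median -0.60). Afp and Ttr did not share this order, with 15.7 and 16.6 CP10K of Afp and 23.9 and 21.6 of Ttr in members and ileal-type cells.

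The 64 Fabp6-matched cells below the guanylin limit (38 of set 0, 26 of set 1) give the comparison in which Guca2a alone set the groups apart. Of 5634 measured genes, 158 were higher in members (2.8%) and 114 were lower (2.02%). With totals taken without mitochondrial, ribosomal protein and haemoglobin genes the order turned round, with 150 higher and 214 lower. The highest ranked were Tmigd1, Gpx3, Ttr, Gatm, Spp2, Fbp1, Csf1r, C2, Rbp4 and Fgb, of 88 that passed 1.5-fold in each set. Gpx3 averaged 29.5 CP10K in members and 5.64 in matched cells, Ttr 23.9 and 4.89, and Tmigd1 1.62 and 0.185. Gatm, which makes a precursor of creatine, averaged 1.42 and 0.286. All 6 measured liver-type serum proteins were higher by 2-fold (median 1.74), as were 6 of 17 endocytic and lysosomal genes (Dab2, Cubn, Lgmn, Ctsd, Neu1 and Hexa, median 0.76).

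Lower in members than in matched cells were Cldn15, Nr2e3, Krt19, Ccdc34, Nop56, Jaml, Prdx4, Ckb, Cda and AI506816, of 50 that met the terms. Cldn15, a claudin that forms sodium pores, averaged 0.0969 CP10K in members and 0.635 in matched cells, and Krt19 2.52 and 8.72. Cftr averaged 0.154 and 0.381. Of 13 immediate early genes 12 were below 0 and 5 were lower by 2-fold, among them Fosb (0.105 and 0.416 CP10K) and Egr1 (0.557 and 1.26), genes that also respond to handling of cells, and all 7 measured heat shock genes were below 0 (median -0.41). Matched cells had a median of 17238 UMIs, against 20105 in members. The part of handling and depth in these ratios was not tested. Fgf15 (1.86 and 2.75 CP10K) and Cldn8 (0.935 and 0.738) were within 2-fold.

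**Figure D4:**
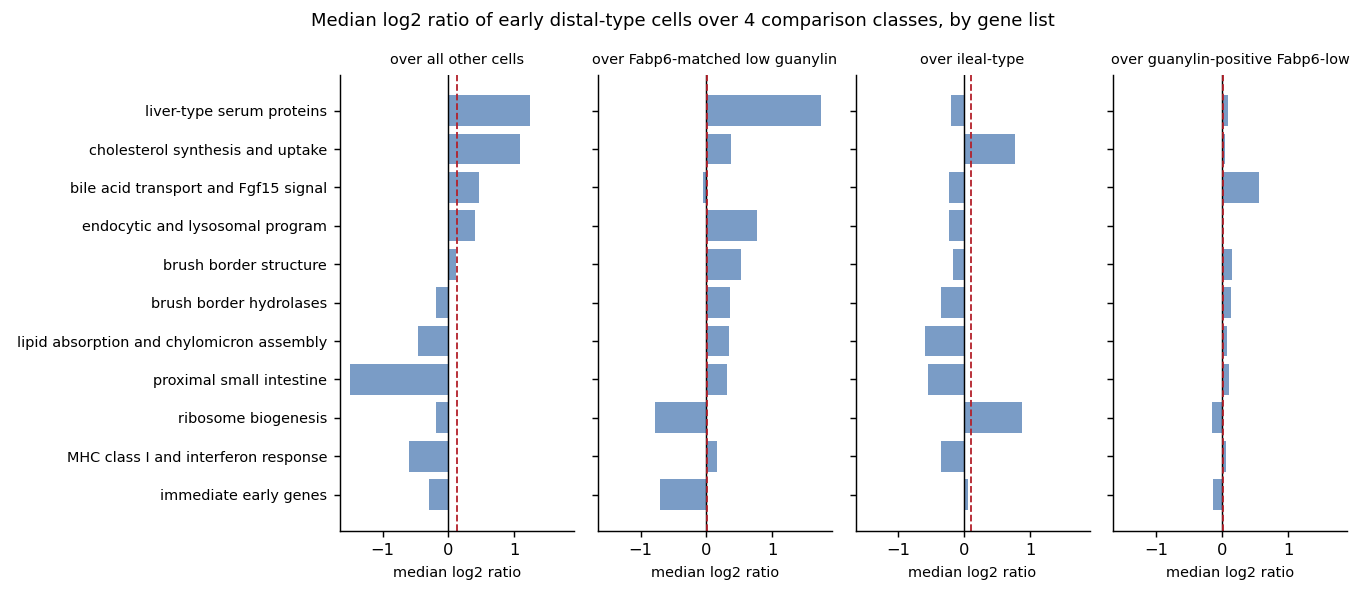
Median log2 ratio (horizontal axis) of 11 gene lists (rows) in early distal-type cells over all other cells, Fabp6-matched low-guanylin cells, ileal-type cells and guanylin-positive Fabp6-low cells (panels, left to right), with the median of all measured genes as a dashed red line. Liver-type serum proteins stood at 1.23 and 1.74 in the left panels, and ribosome biogenesis at -0.78 over matched and 0.88 over ileal-type cells. Over guanylin-positive Fabp6-low cells only the bile acid list (0.56) lay far from the dashed line.

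Members also varied among themselves along Guca2a, which was split at 8 and 16 CP10K into groups of 73, 162 and 160 cells with median depths of 20097, 21437 and 19592 UMIs. Gpx3 averaged 12.8, 23.9 and 42.7 CP10K from the low to the high group, and ran in the same order in set 0 (14.9, 26.4 and 48.0) and in set 1 (3.74, 9.29 and 16.6). Tmigd1 averaged 0.556, 1.15 and 2.59, and Lgmn, the lysosomal protease legumain, 2.74, 4.01 and 6.49. These 3 genes were highest where guanylin was highest in both sets. Afp averaged 5.49, 13.6 and 22.5, but in set 1 the middle group was highest (2.31, 17.2 and 11.7).

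Other genes ran the opposite way. Krt19 averaged 4.11, 3.19 and 1.12 CP10K from the low to the high Guca2a group, Npm1 4.97, 4.13 and 3.07, and Lypd8, a secreted protein that keeps bacteria from the epithelium, 16.9, 14.1 and 8.16. The order was the same in each set for Krt19, Npm1 and Lypd8. Ccnd2 averaged 0.794, 0.454 and 0.113. Fgf15 was lower from group to group in set 0 (3.46, 2.15 and 1.70), while over all members Fabp6 was level (19.98, 21.96 and 20.81) and Fabp1 was lower from group to group (16.1, 11.3 and 7.78). Guanylin and Fgf15 thus ran in opposite orders among set 0 members. Guca2b averaged 3.89, 4.92 and 6.11, in the same order as Guca2a, although it was lower in members than in all other cells together.

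**Figure D5:**
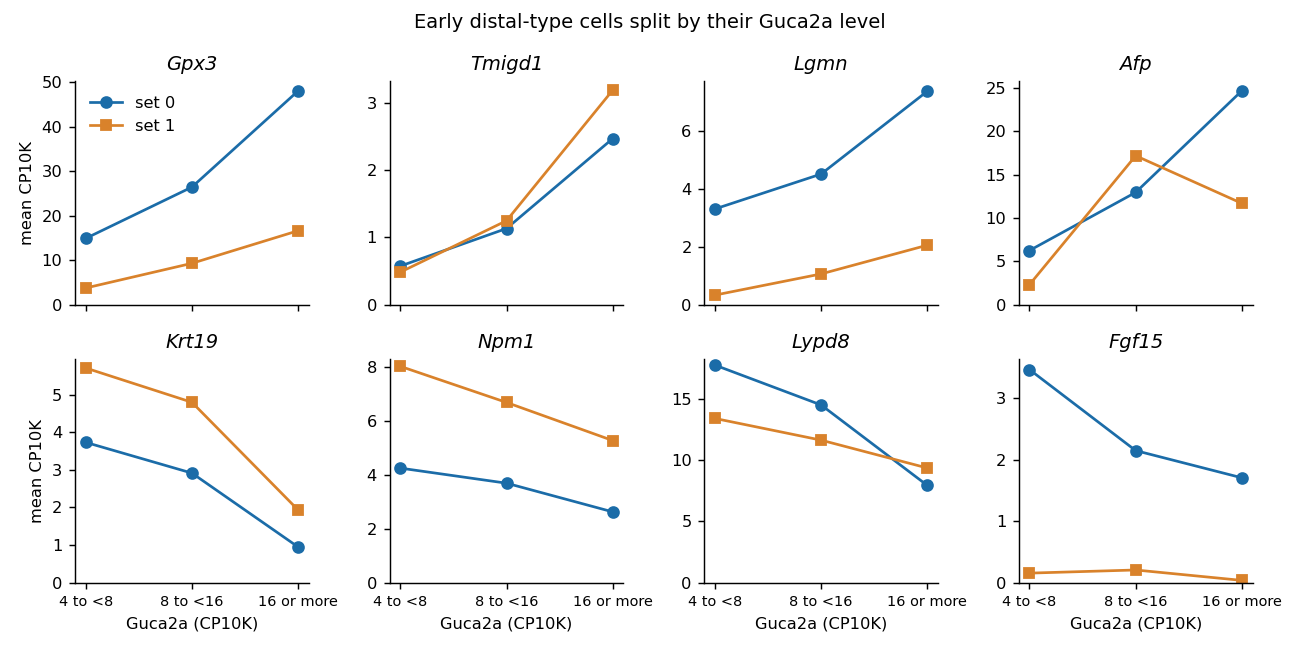
Mean CP10K (vertical axes, from 0) of 8 genes in early distal-type cells split by their own Guca2a level (horizontal axis, CP10K), with circles for set 0 and squares for set 1. Gpx3, Tmigd1 and Lgmn are highest and Krt19, Npm1 and Lypd8 lowest in the group with Guca2a of 16 or more, in both sets. The groups hold 59, 138 and 133 cells of set 0 and 14, 24 and 27 cells of set 1.

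Split by Fabp1 at 3 and 10 CP10K (133, 174 and 88 cells), members differed in absorptive genes. Fabp2 averaged 41.8, 51.2 and 91.4 CP10K, Apoa4 24.6, 33.4 and 74.7 and Rbp2 12.0, 18.1 and 41.9 from the low to the high group. Cldn8 averaged 1.06, 0.992 and 0.630 and Bex1 7.68, 5.53 and 3.38, the reverse order. Set 1 supplied 36, 24 and 5 cells to the groups. In set 0 every one of these orders held. In set 1, Fabp2 averaged 43.0, 35.8 and 90.4 and Apoa4 20.7, 16.7 and 55.6, so they were lower in the middle group than in the low one and the high value rests on 5 cells.

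Values on either side of each limit show how sharp the rule is. With 28 cells just inside the Guca2a limit (4 to 6) and 33 just outside (2 to 4), Afp averaged 3.68 and 7.17 CP10K and Krt19 4.15 and 8.11. At the lower Fabp6 limit (46 cells inside, 81 outside) Fgf15 averaged 1.19 and 0.809, and at the upper limit (50 inside, 39 outside) 2.54 and 3.01. At the Fabp1 limit (17 inside, 26 outside) Fabp2 averaged 118 and 134.

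Members of the sets differed beyond Fgf15. Of 5650 genes measured in either set's members, 163 were higher in set 0 by 2-fold and 106 were lower. Among genes of at least 0.5 CP10K, the highest in set 0 after Fgf15 were Ifi27, Leap2, Gstp2 and Urah, and those lowest were Bex2, Ccnd2, Fam57a and Fgfbp1. Ifi27, an interferon-induced gene, averaged 0.593 CP10K in set 0 and 0.0488 in set 1, and Lgmn 5.46 and 1.32. Fabp6, a gene of the rule, averaged 23.1 CP10K in set 0 members and 10.9 in set 1 members. Library, pool of embryos and genotype cannot be told apart in these differences.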

How the data were processed

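The authors deposited a table of 11871 cells and 25663 genes as a linear signal, normalised before deposit to a sum of 10000 in each cell (CP10K), as its values show. Tools in the submitters' processing notes are Scanpy 1.6.0, Salmon 0.14.1 and alevin, with builds GRCm38 and mm10. Which filters came before deposit is not given in the sources used here. Each cell's depth was recovered by taking its most frequent non-zero value as 1 UMI. For the median cell 94.9% of entries then fell within 0.01 of a whole count, and totals ran from 1152.5 to 250630 UMIs. The labels state 10000 reads per cell, fewer than the median of 23048 UMIs in kept cells.

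Levels are means of CP10K. Log2 ratios add 0.01 to both levels and use genes of at least 0.2 CP10K in either class, with 2-fold as the limit. Counts over all genes include those of the rule. Intervals cover counting error only. Analyses used Python 3.11.15, numpy 2.4.6 and scipy 1.17.1, and the ratio was tested on simulated data. No doublet caller was run, and an alternative left out the deepest 5% of each set.

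The members, gene lists and rules were chosen with earlier results of these data known. Named genes were the 15 highest and 10 lowest over all other cells, up to 10 per direction elsewhere, the guanylin genes and up to 4 per list. Rankings omitted the rule's genes and those of mitochondria, ribosomal proteins, haemoglobin, Xist and the Y chromosome. Other named genes were chosen after their values were seen. Alternatives used summed UMIs, single sets, no weighting, other minimums, pseudocounts, totals and cell filters, and a Guca2a minimum of 6. Single values of some listed genes are not reported here.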

Additional observations from a re-analysis of the deposited data

How the results depend on the processing

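The share of members was 4.07% with cells thinned to 8000 UMIs, 5.56% in set 0 and 1.27% in set 1. Counts past 2-fold are given as higher and lower. Over all other cells they were 240 and 619 with no minimum level, 37 and 46 with a minimum of 1 CP10K, 55 higher with a pseudocount of 0.1 and 192 higher in set 1 alone. Over Fabp6-matched cells they were 1113 and 1030 with no minimum, 48 and 19 with a minimum of 1, 84 and 44 with a pseudocount of 0.1, 188 lower in set 0, 227 lower in set 1 and 214 lower with totals without mitochondrial, ribosomal protein and haemoglobin genes. Over ileal-type cells they were 332 and 249 with no minimum, 21 and 32 with a minimum of 1, 33 and 58 with a pseudocount of 0.1, 44 higher in set 0, 933 and 488 in set 1 (23 ileal-type cells), and 133 higher with the reduced total. Over guanylin-positive Fabp6-low cells they were 86 and 99 with no minimum, 2 and 0 with a minimum of 1, 20 and 12 without weighting, 12 and 6 in set 0, 36 and 68 in set 1, 10 and 7 with the reduced total, 8 higher with all rows, 3 higher without the deepest cells and 1 lower with a pseudocount of 0.1.

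Of 972 values of named genes past 2-fold over all other cells, 970 kept their direction, and of 756 over matched cells 747 did. Over all other cells Hba-a1 was -0.44 and Hbb-bs -0.11 without the deepest cells, and -0.69 and -0.28 without the cell with the highest value. Over matched cells in set 1, Bst1 was -0.94, Ccnd2 0.97, Chgb 0.95, Dusp1 1.78, Gart 1.22, Leap2 -2.26 and Pyy 0, and with a stricter cell filter Chgb was 0.84 and Pigr 0.54. The cause was not tested. All 78 values of list medians past 2-fold over all other cells, and all 12 over matched cells, kept their direction. No paired analysis was possible because each genotype has 1 sample and cells are not mapped to samples. With 65 members in set 1, low genes there rest on few UMIs.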
